A study of Mus musculus with 6 samples.

Results

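The 87 nuclear genes for subunits of the oxidative phosphorylation machinery, and for cytochrome c, were compared between CD11b+ spleen cells of mice given WT iGB6 cells and mice given IgHMOG iGBGFP cells. The genes were taken from the deposited table of 43432 genes by their GENCODE M21 symbols: protein-coding genes starting with Ndufa, Ndufb, Ndufc, Ndufs, Ndufv, Uqcr, Cox4i, Cox5, Cox6, Cox7, Cox8 or Atp5, without the Ndufaf assembly factors, plus Sdha, Sdhb, Sdhc, Sdhd, Cyc1 and Cycs. Of these, 36 belong to complex I, 4 to complex II, 9 to complex III, 20 to complex IV and 17 to complex V, and Cycs is cytochrome c itself. Ndufa4 and its paralog Ndufa4l2 were counted with complex IV, where Ndufa4 is now placed. Atpif1, the inhibitor of complex V, and Usmg5, a small complex V subunit, fall outside the symbol rule because M21 gives them names of another form. A further 11 genes with the same prefixes are not protein-coding and were left out.

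Complexes I and II feed electrons from NADH and succinate into coenzyme Q, complex III passes them to cytochrome c, and complex IV passes them to oxygen. Complexes I, III and IV pump protons across the inner mitochondrial membrane, and complex V, the ATP synthase, uses the returning protons to make ATP. Neutrophils rely largely on glycolysis, whereas monocytes and macrophages shift between glycolysis and mitochondrial respiration with their state.

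RNA came from 6 C57BL/6J mice with a Rag1 knockout, which leaves the host without its own mature lymphocytes of the T and B lineages, and each library was 1 mouse sampled 8 days after cell transfer. All 6 mice received unmanipulated 2D2 CD4+ T cells, which carry a transgenic receptor for myelin oligodendrocyte glycoprotein (MOG), and MOG-loaded B cells grown in the iGB culture for germinal centre-like B cells. In the WT iGB6 group the transferred B cells came from wild-type mice and held a pMSCV retroviral vector with Il6 and eGFP. In the IgHMOG iGBGFP group they carried the IgHMOG heavy chain knock-in and the vector without Il6, so that B cell genotype and vector changed together and their effects cannot be told apart. Each group had 3 mice, of which replicate 1 was female and replicates 2 and 3 were male. The cells measured were the CD11b+ cells and not a sample of the transferred B cells. Transcripts of transferred cells were not shown to be absent, and T and B cell markers were present at low levels.

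Promoters of these genes are known for sites of the factors NRF1, GABPA, YY1 and the estrogen-related receptors, and the windows of 3 members with such matches are shown first, to give the sequence context of the genes compared. RefSeq windows of 300 bases (250 before and 50 after the start of the gene, build GRCm38.p6) were found for 68 of the 87 members. The letters CGCNTGCGC (NRF1), searched on both strands as were the others, were in 30.1% of 73 member windows and in 8.58% of the 21263 windows of all protein-coding genes. AAGATGGCG (YY1) was in 9.59% against 1.83%, TCAAGGTCA (estrogen-related receptors) in 2.74% against 0.334%, and CCGGAAGT (GABPA) in 6.85% against 5.15%. Matches that overlapped another match were kept, and a match describes letters, not a bound site. The windows of Uqcrc1 (chr9:108936398-108936697, plus strand), Sdha (chr13:74350191-74350490, minus strand) and Ndufs6 (chr13:73328433-73328732, minus strand) follow, each 5′ to 3′ on the strand of the gene. Capitals mark NRF1 matches and, near the end of the Ndufs6 window, a YY1 match.
Uqcrc1: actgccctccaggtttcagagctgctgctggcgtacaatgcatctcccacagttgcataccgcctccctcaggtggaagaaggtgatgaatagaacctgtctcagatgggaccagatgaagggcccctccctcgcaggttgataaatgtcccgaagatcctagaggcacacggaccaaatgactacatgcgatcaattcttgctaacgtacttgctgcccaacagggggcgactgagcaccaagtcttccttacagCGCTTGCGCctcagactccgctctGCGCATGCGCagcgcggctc
Sdha: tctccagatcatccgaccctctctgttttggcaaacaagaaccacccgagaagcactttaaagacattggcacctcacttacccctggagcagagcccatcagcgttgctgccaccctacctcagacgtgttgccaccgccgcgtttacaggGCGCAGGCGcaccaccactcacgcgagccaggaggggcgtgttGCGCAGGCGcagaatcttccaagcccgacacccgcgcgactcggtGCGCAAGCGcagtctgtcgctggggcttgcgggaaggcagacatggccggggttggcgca
Ndufs6: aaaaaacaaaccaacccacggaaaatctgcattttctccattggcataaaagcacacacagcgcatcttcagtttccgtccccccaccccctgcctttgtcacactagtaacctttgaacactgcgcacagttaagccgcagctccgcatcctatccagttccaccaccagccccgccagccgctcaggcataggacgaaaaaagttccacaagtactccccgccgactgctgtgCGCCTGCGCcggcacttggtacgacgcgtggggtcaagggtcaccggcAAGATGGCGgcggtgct
The Uqcrc1 and Sdha windows each hold 3 matches to the NRF1 letters, and in Uqcrc1 the second stretch of capitals is palindromic and matched on both strands. The Uqcrc1 matches lie after the start of the gene, at 6, 30 and 31 bases, and the Sdha matches lie before it, at -98, -55 and -10. Across the tested members, the 21 with an NRF1 match had a median log2 fold change (WT iGB6 / IgHMOG iGBGFP) of 0.09, and the 44 with a window and no match had 0.16.

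The libraries held 5196339 to 7564254 reads and detected 14816 to 17013 genes, and 3 reads corresponded to 2.37 to 3.56 normalized counts. Itgam, the gene for CD11b, ranged from 6451 to 12352 normalized counts over the 6 libraries. Il6, carried by the vector in the transferred WT iGB6 cells, was low in these CD11b+ cells, at 6.00 to 17.2 normalized counts in IgHMOG iGBGFP and 2.37 to 3.56 in WT iGB6. Marker genes of several cell types differed in level between the groups, where 6.12% of all genes tested were called. All 6 neutrophil precursor markers were called higher in WT iGB6, with summed levels of 9345 to 24679 normalized counts against 1869 to 4599, as were 7 of 8 division genes, with sums of 4500 to 8541 against 2354 to 3515. Basophil markers were called lower for 4 of 5 genes (193 to 445 against 842 to 2141) and dendritic cell markers for 2 of the 3 tested (19.0 to 99.5 against 253 to 986). Monocyte markers were called lower for 3 of 5 (9193 to 10568 against 10902 to 17436), with 1 estimate above 0. Mature neutrophil markers went both ways, with 1 of 6 called lower and 2 estimates above 0. Their sums overlapped (238722 to 380115 against 173182 to 362141). No macrophage, T cell, B cell, plasma cell, erythroid or NK cell marker was called. T cell markers were present at low levels in both groups, with sums of 72.6 to 99.0 normalized counts in WT iGB6 and 97.5 to 150.4 in IgHMOG iGBGFP, as were B cell markers (51.7 to 89.2 against 74.7 to 129). Within these lists Cd3d (47.0 to 132) and Cd79b (32.6 to 104) were found in every library, as were Cd4, Cd3g and Cd79a, whereas Cd3e, Trac and Ms4a1 were at 0 in 3, 2 and 1 of the 6 libraries. The part of these shifts in the results for the OXPHOS genes was not tested, and fewer cells of a type cannot be told apart from less RNA per cell in bulk samples.

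The members spanned a wide range of levels. Of the 87 genes, 79 had a mean of at least 10 normalized counts and were tested: all of complexes I, II and III, cytochrome c, 13 of 20 in complex IV and 16 of 17 in complex V. Levels are given as normalized counts per kilobase of principal transcript, the longest where several ranked equally in the annotation. They depend on that choice of transcript, which was 3479 bases long for Ndufab1. The highest level was that of Cox4i1, the common isoform of a regulatory complex IV subunit, at 2419 per kilobase (mean of 6 libraries). Complex I ran from 5.74 for Ndufab1, the mitochondrial acyl carrier protein, to 1759 for Ndufb7, an accessory subunit of the membrane arm. Complex II ran from 140 per kilobase for the membrane anchor Sdhc to 973 for the iron-sulfur subunit Sdhb. In complex III the Rieske iron-sulfur protein Uqcrfs1 was lowest, at 13.2, and the core protein Uqcrc1 highest, at 1234. Complex V ran from 35.1 per kilobase for Atp5g2, a gene for the proton-carrying c ring, to 1234 for Atp5c1, the central stalk subunit, and cytochrome c (Cycs) stood at 89.1. Subunits of 1 complex are assembled in fixed ratios as proteins, whereas these transcript levels per kilobase differed widely within complexes. Reads shared with processed pseudogenes bear on some of these levels: 87.4% of the 50-base words of Atp5g2, 84.9% of Atp5l and 53.0% of Cox7c also occur in transcripts of other genes, against 0% for Uqcrc1, Cyc1, Uqcrfs1, Ndufv3 and Sdha.

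**Figure D1:**
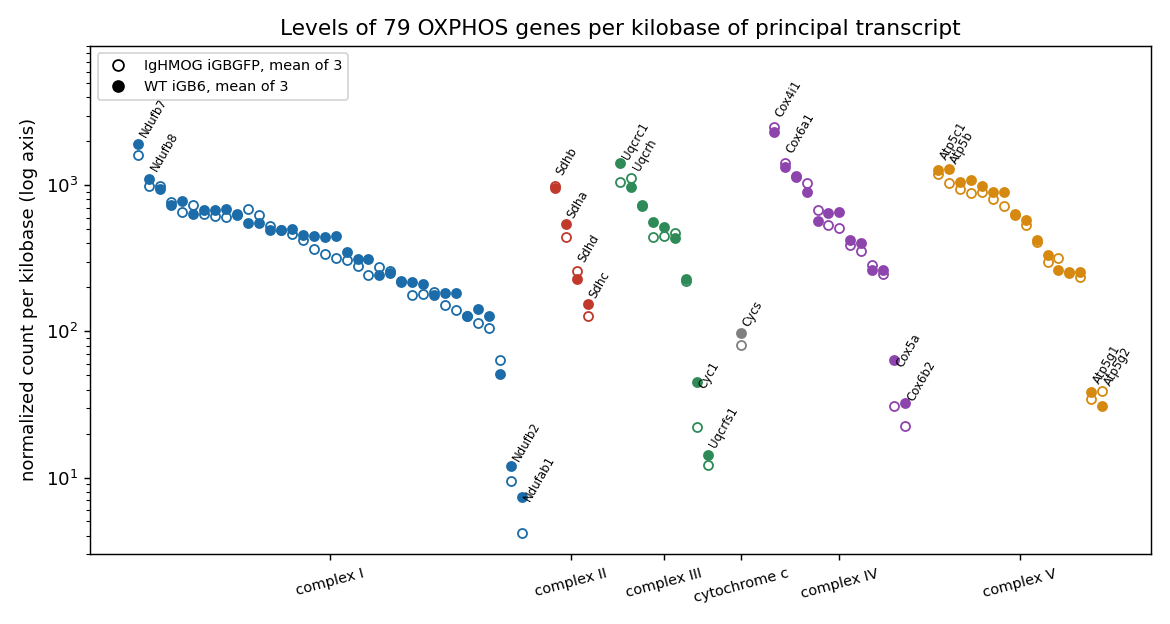
Normalized counts per kilobase of principal transcript (log axis) for the 79 tested OXPHOS genes, ordered by level within each complex along the x axis, with open circles for the mean of the 3 IgHMOG iGBGFP libraries and filled circles for the mean of the 3 WT iGB6 libraries. Cox4i1 is at the top and Ndufab1 at the bottom, and for most genes both circles nearly coincide.

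The 8 members below the filter are mostly isoforms of other tissues. Cox8b and Cox8c, the muscle and testis forms of a small complex IV subunit, and Ndufa4l2, a hypoxia-induced paralog of Ndufa4, had 0 reads in all 6 libraries, which allows up to 3 reads in each. Cox4i2, the lung isoform paired with Cox4i1, had 7 reads over all libraries, the muscle isoforms Cox6a2 and Cox7a1 had 12 and 11, and the testis isoform Cox7b2 had 2. Their counterparts Cox4i1, Cox6a1, Cox7a2 and Cox8a had means of 1850, 788, 385 and 532 normalized counts. Cox6b2, the testis counterpart of Cox6b1, was the single tissue-limited isoform to pass the filter, at 14.3, 9.49 and 16.0 normalized counts in IgHMOG iGBGFP replicates 1 to 3 and 24.9, 16.6 and 15.7 in WT iGB6 replicates 1 to 3. Its groups overlapped, and its level was far below that of Cox6b1, which had a mean of 710 normalized counts. Atp5s, the coupling factor B of complex V, had 4.09, 2.59 and 3.00 normalized counts in IgHMOG iGBGFP and 11.9, 11.1 and 0 in WT iGB6.

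No member passed the test between the groups. Of 79 tested genes, 0 were called higher and 0 lower in WT iGB6 (limma on log2(normalized count + 1) with sex and group as terms, Benjamini-Hochberg adjusted p under 0.05), where the share called over all 9923 genes was 6.12%. The smallest adjusted p of limma among members was 0.113, for Ndufv3. An unadjusted p under 0.05 was reached by 3 members, or 3.80%, against 24.5% of all genes. The count tests edgeR (6.11% of all genes called) and DESeq2 (9.58%) on recovered reads also called 0 members, each with 4 at an unadjusted p under 0.05, and the authors' deposited table (8.18% called) listed 0, with 4 unadjusted. Leaving out WT iGB6 replicate 2 was the exception among the alternatives: 2 members, Cyc1 and Cox5a, were then called higher, in a fit that called 10.9% of all genes.

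The intervals show how large a difference these data still allow. For 72 of 79 members (91.1%) the 95% interval of the log2 fold change lay within 1 of 0, that is within 2-fold in either direction, as it did for 56.1% of all genes. The 7 exceptions were Cyc1, Cox5a, Ndufab1, Cox6b2, Ndufb2, Atp5g2 and Uqcrfs1, which are the 7 least abundant tested members. The median standard error was 0.19, and the largest was 0.51, for Ndufab1. The coefficient of variation over the 6 libraries had a median of 15.2% for the members and 25.5% for all genes tested. Differences smaller than 2-fold remain within the intervals of most members, and 76 of the 79 intervals include 0.

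The estimates of the members lay slightly above 0 in most cases. The median log2 fold change was 0.15 (0.02 over all genes), with 54 members above 0 and 25 below, but scaling to total counts moved it to -0.05 while the median of all genes moved to -0.19. Relative to the median of all genes the members stood at 0.137 with the authors' size factors and at 0.135 with total counts, but at 0.066 with quantile normalization and 0.067 with a minimum mean of 50. This offset rested on the library of IgHMOG iGBGFP replicate 3, without which the member median was 0.01 and its offset from all genes -0.003. By complex the medians were 0.17 for I, 0.11 for II, 0.21 for III, 0.08 for IV and 0.14 for V, and all of them except that of complex III turned below 0 with total count scaling. Leaving out 1 library at a time gave medians of 0.01 to 0.25 for complex I, 0.03 to 0.18 for II, 0.01 to 0.29 for III, 0.0025 to 0.15 for IV and 0.05 to 0.22 for V. The lowest value came without IgHMOG iGBGFP replicate 3 in complexes I, III, IV and V, and without replicate 1 of either group in complex II. The WT iGB6 libraries all lay above the IgHMOG iGBGFP libraries for 12 of 79 members (15.2%; 12.2% of all genes), and all below for 0 (11.4% of all genes). Among them were Uqcrc1, Ndufv2, Uqcrc2, Atp5o, Ndufc1, Ndufa9, Sdha, Atp5j, Ndufs1, Sdhc and Cycs. A share of 15.2% is near the background.

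**Figure D2:**
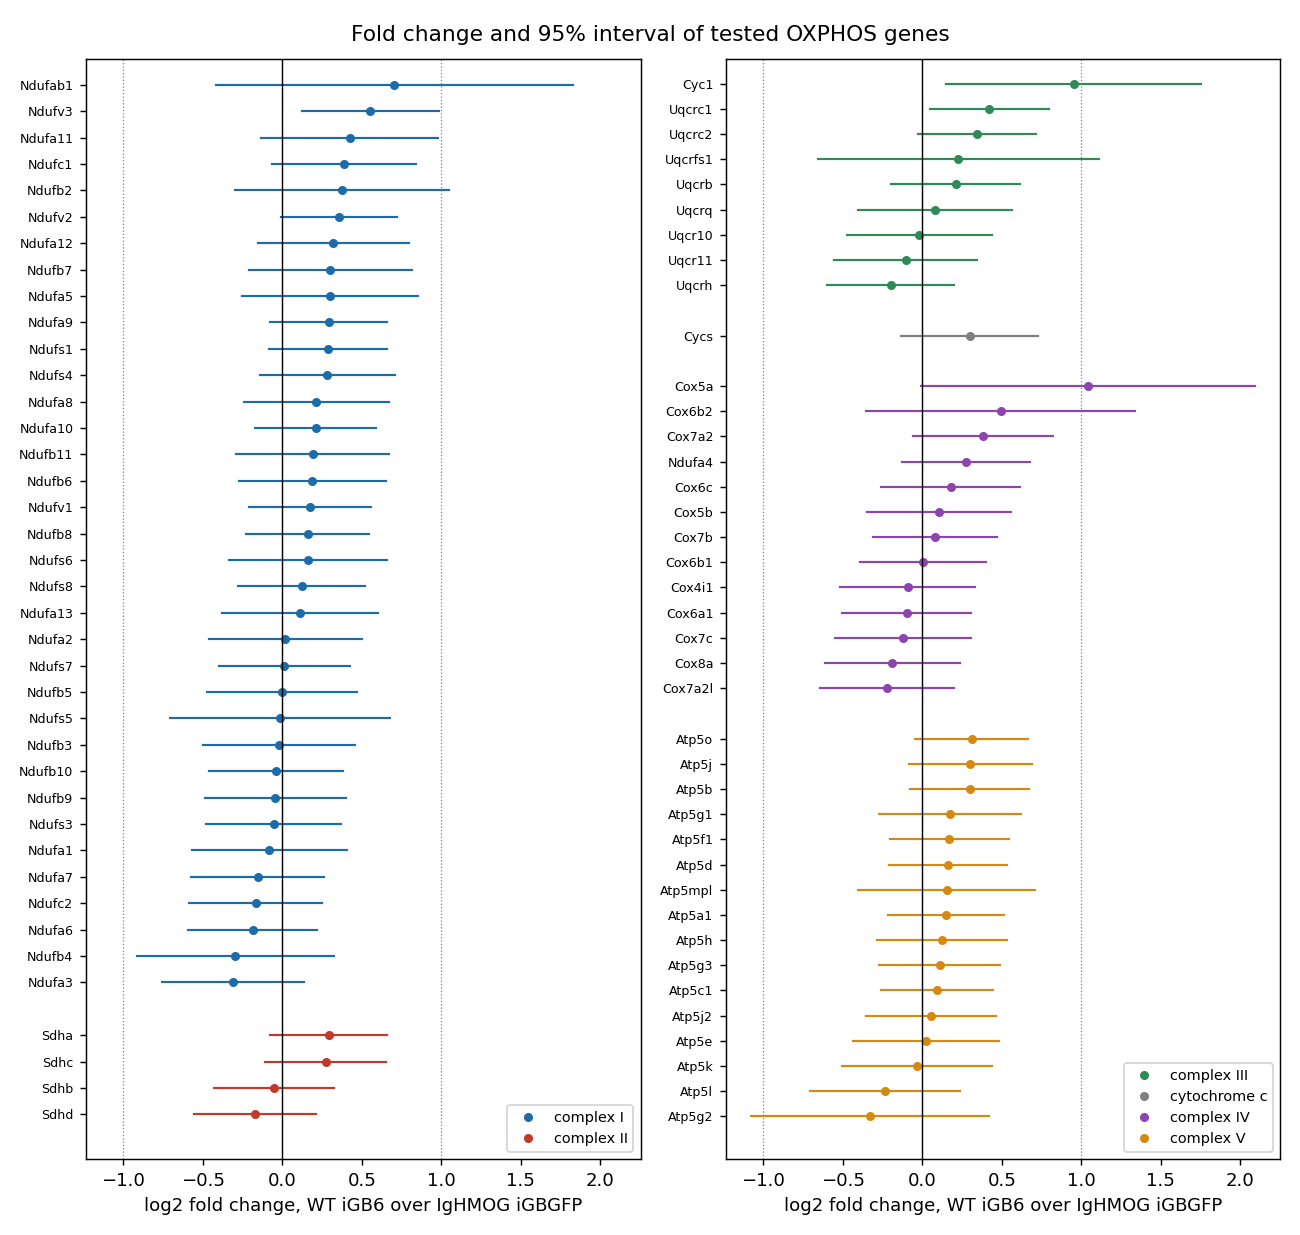
Log2 fold change (WT iGB6 / IgHMOG iGBGFP) (x axis) for the tested OXPHOS genes, 1 left out, grouped by complex and coloured by it, with points for the limma estimate and bars for its 95% interval, from 3 libraries per group. Dotted lines mark a log2 fold change of 1 in either direction, and the bars of Ndufv3, Cyc1 and Uqcrc1 are the 3 that do not cross 0.

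Complex I oxidises NADH in a peripheral arm of core subunits and is built out by many accessory subunits. None of its 36 genes passed the test, 24 of the estimates lay above 0, and the medians of the 7 core genes (0.18) and the 29 accessory genes (0.16) were alike in value. Ndufv3, an accessory subunit of the NADH-binding module (ENSMUSG00000024038, chr17:31520115-31531331 in GRCm38), had 666, 482 and 351 normalized counts in IgHMOG iGBGFP replicates 1 to 3 and 785, 640 and 712 in WT iGB6 replicates 1 to 3. The groups overlapped, since IgHMOG iGBGFP replicate 1 exceeded WT iGB6 replicate 2, and the log2 fold change was 0.55 ± 0.19 (SE, n = 3 per group; 95% interval 0.13 to 0.98; limma adjusted p = 0.113). Ndufv2, a core iron-sulfur subunit of the same module, had 400, 450 and 397 in IgHMOG iGBGFP and 525, 528 and 543 in WT iGB6. Its groups did not overlap and were each narrow, and the log2 fold change was 0.36 ± 0.16 (SE; limma adjusted p = 0.211).

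Ndufs1, the largest core subunit, had 400, 373 and 431 normalized counts in IgHMOG iGBGFP and 517, 462 and 489 in WT iGB6. Every WT iGB6 library lay above every IgHMOG iGBGFP library, and the gene missed the threshold at a log2 fold change of 0.29 (limma adjusted p = 0.325). Ndufc1, a small accessory subunit, likewise did not overlap, with 193, 198 and 137 in IgHMOG iGBGFP and 236, 234 and 215 in WT iGB6. Ndufb7, the most abundant complex I gene per kilobase, did overlap: it had 1234, 1156 and 622 normalized counts in IgHMOG iGBGFP and 1296, 1092 and 1178 in WT iGB6, so that IgHMOG iGBGFP replicate 3 alone was low. Ndufs6, whose promoter window is printed above, had the same shape, with 254, 292 and 170 in IgHMOG iGBGFP and 262, 260 and 258 in WT iGB6. At the other end, the accessory genes Ndufa3 and Ndufb4 had the lowest estimates of the complex, -0.31 and -0.30, with overlapping groups.

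Complex II, succinate dehydrogenase, also works in the citric acid cycle and is the one complex here with no mitochondrially encoded subunit. Its genes were split by estimate, 2 above 0 and 2 below. Sdha, the flavoprotein that oxidises succinate (chr13:74322254-74350280), had 1136, 1313 and 1419 normalized counts in IgHMOG iGBGFP and 1626, 1631 and 1463 in WT iGB6. The WT iGB6 libraries all lay above, with a log2 fold change of 0.29 ± 0.17 (SE; limma adjusted p = 0.315). Sdhb, the iron-sulfur partner of Sdha, had 1020, 1329 and 1057 against 1078, 1049 and 1136, and its groups overlapped at a log2 fold change of -0.05. Of the membrane anchors, Sdhc had 373, 461 and 375 normalized counts in IgHMOG iGBGFP and 464, 480 and 512 in WT iGB6. Sdhd, the other anchor, had 239, 363 and 360 against 235, 293 and 318, with replicate 1 the lowest in both groups. Neither anchor passed the test (limma adjusted p = 0.360 for Sdhc and 0.583 for Sdhd).

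Complex III held the members nearest to the threshold after Ndufv3, and none passed it. Uqcrc1, a core protein without redox groups (ENSMUSG00000025651, chr9:108936633-108949623), had 1750, 1644 and 1811 normalized counts in IgHMOG iGBGFP replicates 1 to 3 and 2803, 2063 and 2166 in WT iGB6 replicates 1 to 3. All WT iGB6 libraries lay above, replicate 1 furthest, and the log2 fold change was 0.42 ± 0.17 (SE; 95% interval 0.048 to 0.80; limma adjusted p = 0.158). Its partner Uqcrc2 had 872, 789 and 860 against 975, 1021 and 1216, again without overlap, at 0.34 (limma adjusted p = 0.238). For Uqcrc2, 24.8% of the 50-base words also occur in transcripts of other genes. Cyc1, the cytochrome c1 that hands electrons to cytochrome c (ENSMUSG00000022551, chr15:76343523-76346260), was low, with 55.2, 22.4 and 23.0 normalized counts in IgHMOG iGBGFP and 99.6, 28.4 and 76.5 in WT iGB6. The groups overlapped, because WT iGB6 replicate 2 was nearly as low as the IgHMOG iGBGFP males and below the IgHMOG iGBGFP female, and the log2 fold change was 0.95 ± 0.36 (SE; 95% interval 0.15 to 1.75; limma adjusted p = 0.139). Without that library Cyc1 had a log2 fold change of 1.34 and a limma adjusted p of 0.0160, the lowest of a range up to 0.358 over 21 alternatives. The Rieske protein Uqcrfs1, the other electron-carrying subunit coded in the nucleus, had 16.4, 22.4 and 11.0 against 26.1, 14.2 and 18, with full overlap. The 5 small subunits Uqcrb, Uqcrh, Uqcrq, Uqcr10 and Uqcr11 had a median of -0.02, from -0.20 for Uqcrh to 0.21 for Uqcrb.

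Cycs, the mobile carrier between complexes III and IV (chr6:50562563-50566538), had 200, 273 and 279 normalized counts in IgHMOG iGBGFP and 330, 284 and 304 in WT iGB6. The groups were separated by a few counts only, between IgHMOG iGBGFP replicate 3 and WT iGB6 replicate 2, and the log2 fold change was 0.30 ± 0.19 (SE; limma adjusted p = 0.378). A share of 28.5% of its 50-base words also occurs in transcripts of other genes.

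Complex IV had the lowest median of the complexes, and all 13 of its tested genes had overlapping groups. Over all genes tested, the WT iGB6 libraries lay all above for 12.2% and all below for 11.4%. Cox5a, a subunit in all tissues, had the largest estimate of the 79 genes and low levels, with 34.8, 6.90 and 18 normalized counts in IgHMOG iGBGFP replicates 1 to 3 and 62.8, 15 and 45.0 in WT iGB6 replicates 1 to 3. Its log2 fold change was 1.04 ± 0.47 (SE; limma adjusted p = 0.208), and replicate 2 was the lowest library in both groups. Without WT iGB6 replicate 2 it was 1.45 with a limma adjusted p of 0.0411, the lowest of a range up to 0.550 over 20 alternatives. Ndufab1 of complex I, which is as scarce, had its 2 lowest values in the same 2 libraries, 6.90 and 9.47 normalized counts. For Cox5a, 32% of the 50-base words also occur in transcripts of other genes, and 12.8% of the exon bases overlap exons of another gene. Cox4i1, the most abundant member per kilobase, had 1804, 2394 and 1572 in IgHMOG iGBGFP and 1769, 1813 and 1749 in WT iGB6. The WT iGB6 values of Cox4i1 lay inside the span of the IgHMOG iGBGFP values, at a log2 fold change of -0.09 (95% interval -0.52 to 0.33). Cox7a2, the isoform found in most tissues, had 349, 395 and 264 against 503, 389 and 413, with overlap at replicate 2 and a log2 fold change of 0.38. Cox7a2l, a factor in joining complexes III and IV into supercomplexes, had 533, 881 and 763 normalized counts in IgHMOG iGBGFP and 600, 669 and 562 in WT iGB6. Its estimate of -0.22 was the lowest of the complex, with overlapping groups. Ndufa4, with 295, 373 and 310 against 417, 402 and 362, had an estimate of 0.28 and overlapped between IgHMOG iGBGFP replicate 2 and WT iGB6 replicate 3.

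**Figure D3:**
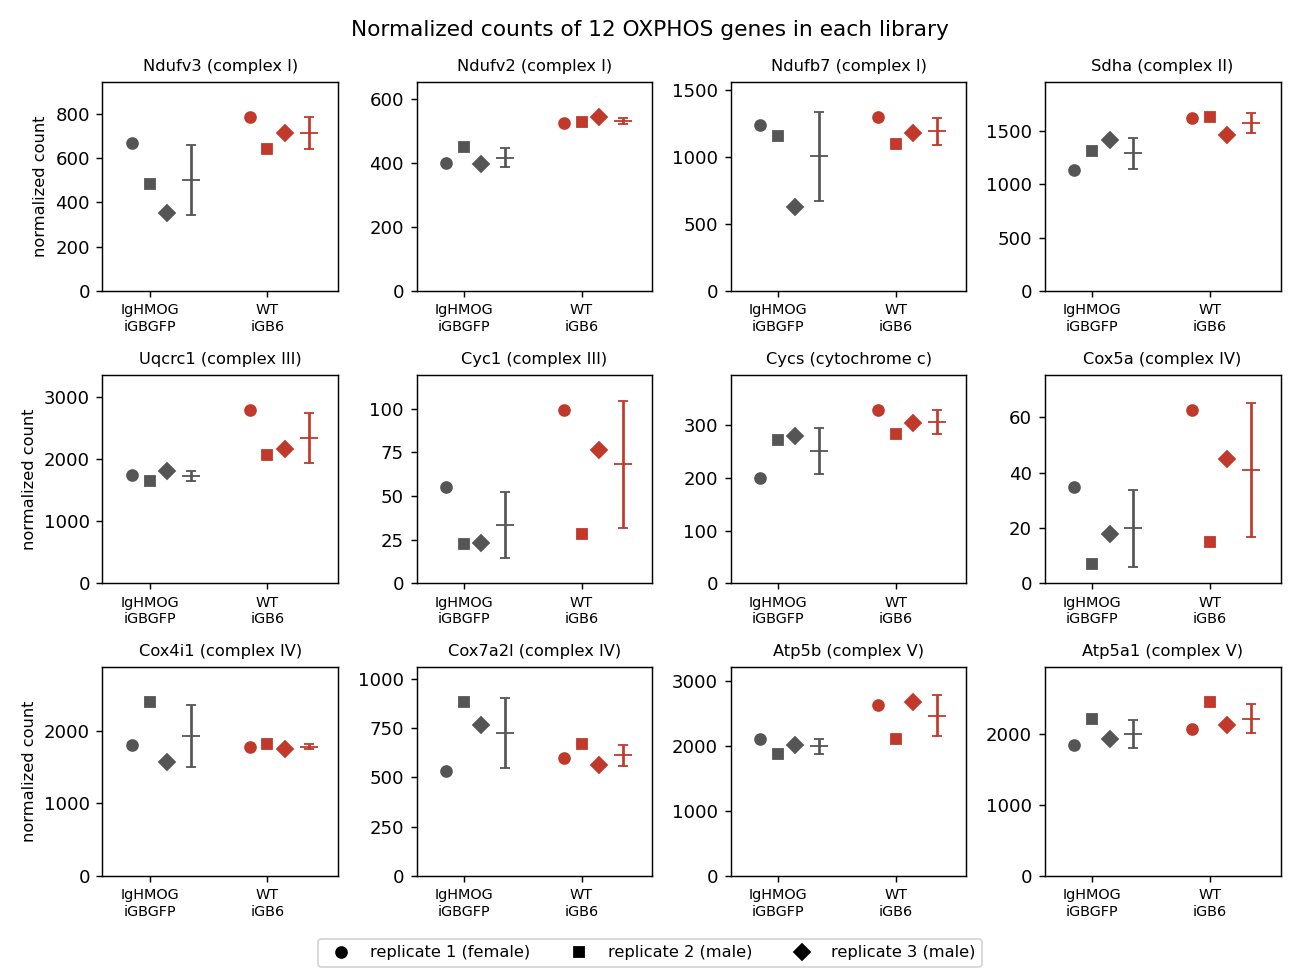
Normalized counts (y axes from 0) of 12 OXPHOS genes in each of the 6 libraries, by group, with the replicate shown by the symbol and the mean ± SD of 3 libraries beside the points. Ndufv2, Sdha, Uqcrc1 and Cycs have WT iGB6 points above all IgHMOG iGBGFP points, whereas Cyc1 and Cox5a spread widely within both groups.

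In complex V the catalytic F1 head is joined to the membrane ring by a central and a peripheral stalk. With the size factors of the authors, the 5 F1 genes had estimates above 0 with a median of 0.15, and the 4 peripheral stalk genes a median of 0.24, and none passed the test. Atp5b, the catalytic beta subunit and the most abundant member by mean count, had 2099, 1871 and 2008 normalized counts in IgHMOG iGBGFP and 2619, 2097 and 2670 in WT iGB6. The groups touched, since WT iGB6 replicate 2 lay just under IgHMOG iGBGFP replicate 1, at a log2 fold change of 0.30 ± 0.17 (SE; limma adjusted p = 0.314). The alpha subunit Atp5a1, which is present in equal number with the beta subunit in the head, had 1846, 2222 and 1942 against 2074, 2458 and 2136, with overlap and an estimate of 0.15. Atp5o, the stalk subunit that binds the head, had 576, 652 and 594 normalized counts in IgHMOG iGBGFP and 767, 744 and 746 in WT iGB6. Atp5j, also in the stalk, had 780, 787 and 589 against 939, 811 and 890. Both stalk genes had no overlap between the groups and missed the threshold (limma adjusted p = 0.265 and 0.324). For Atp5o, 47.9% of the exon bases overlap exons of another gene. Whether reads of the pair were told apart depends on the strand setting, which was not given. The c ring genes Atp5g1, Atp5g2 and Atp5g3, which encode the same mature protein, had estimates of 0.18, -0.33 and 0.11. The most even member over the 6 libraries was Atp5c1, with a coefficient of variation of 7.0%. Outside the symbol rule, the inhibitor Atpif1 had 290.5, 338 and 191 normalized counts in IgHMOG iGBGFP and 272, 307 and 263 in WT iGB6, with overlap.

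The levels of the members varied between libraries within a group. The summed level of all members was 38219, 42950 and 34801 normalized counts in IgHMOG iGBGFP replicates 1 to 3 and 43467, 40701 and 43119 in WT iGB6 replicates 1 to 3. The sums overlapped, and as a share of each library they were 0.666% ± 0.0889 (SD, n = 3) in IgHMOG iGBGFP and 0.632% ± 0.0436 in WT iGB6. The median deviation of members from their own mean, on the log2 scale, was -0.07, 0.17 and -0.23 in the IgHMOG iGBGFP libraries and 0.08, 0.00 and 0.11 in those of WT iGB6. IgHMOG iGBGFP replicate 2 was the highest of the 6 libraries for 35 of 79 members, and IgHMOG iGBGFP replicate 3 the lowest for 39. Complex II differed, with its lowest median deviation in IgHMOG iGBGFP replicate 1 (-0.27). The complex III core genes Uqcrc1 and Uqcrc2 differed in another way, with -0.16, -0.27 and -0.14 in IgHMOG iGBGFP replicates 1 to 3, lowest in replicate 2. Replicates 2 and 3 are both males, and the spread within that group exceeded the difference between the group means. The standard deviation was smaller in WT iGB6 than in IgHMOG iGBGFP for 64 of 79 members (81.0%), compared with 57.9% of all genes tested. Leaving out IgHMOG iGBGFP replicate 2 raised the member median to 0.24, with 66 of 79 estimates above 0.

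**Figure D4:**
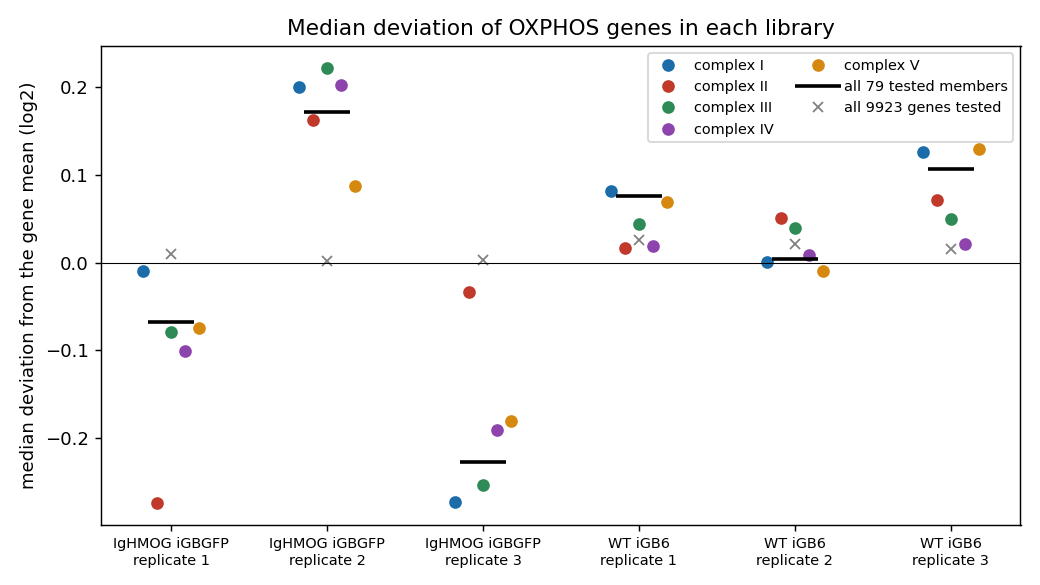
Median deviation from the gene mean (log2, y axis) in each library (x axis) of the tested genes of each complex (coloured points), of all 79 tested members (bars) and of all 9923 genes tested (crosses). Complexes I, III, IV and V share the order of the IgHMOG iGBGFP libraries, with replicate 2 high and replicate 3 low, and the WT iGB6 libraries sit close together.

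Members with longer transcripts had higher estimates. OXPHOS genes are short, and 45 of the 79 tested have a principal transcript of up to 1000 bases. Their median log2 fold change was 0.02, with 2 of 45 having all WT iGB6 libraries above, against 0.24 and 10 of 34 for the longer members. In percent these were 4.44 and 29.4, where the background was 6.99% of all short genes and 12.8% of all longer genes. Across all genes tested the medians were -0.03 for 572 short genes and 0.03 for 8909 longer ones. Spearman's rho between length and log2 fold change was 0.47 across the 79 members, which share the same 6 libraries and are not independent. With each library left out in turn it was 0.37 to 0.57, and the same 0.40 without replicate 1 of either group. Over 9481 genes with a length it was -0.05. Short genes of all kinds were high in IgHMOG iGBGFP replicate 2, with a median deviation of 0.25, and low in IgHMOG iGBGFP replicate 3, at -0.11, in the direction of the members. The part of transcript length, of the choice of principal transcript or of RNA quality in the differences between subunits was not tested.

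**Figure D5:**
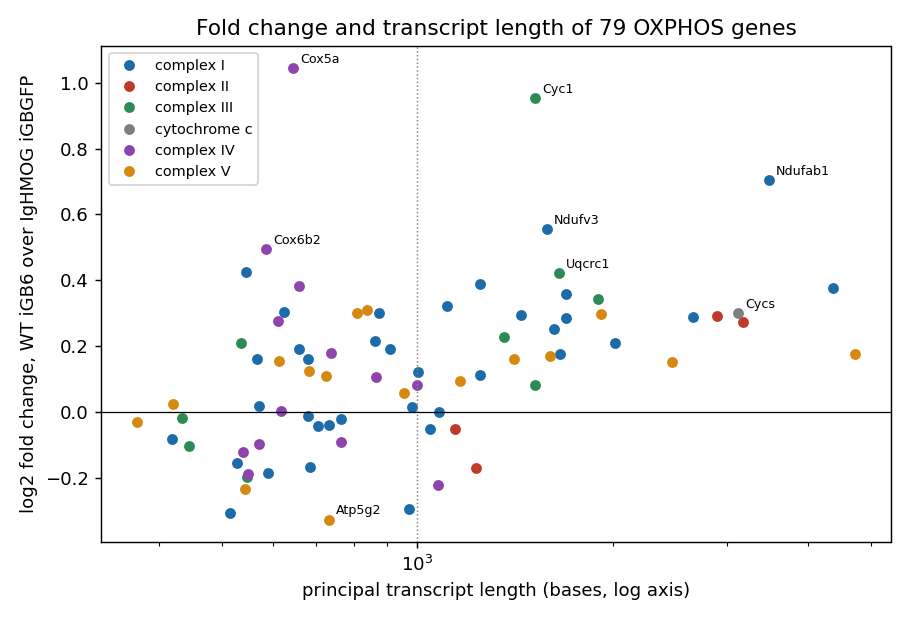
Log2 fold change (WT iGB6 / IgHMOG iGBGFP) (y axis) against principal transcript length in bases (log x axis) for the 79 tested OXPHOS genes, coloured by complex, with a dotted line at 1000 bases. Points to the right of the line lie mostly above 0, and points to its left lie on both sides.

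The 13 subunits encoded in mitochondrial DNA complete complexes I, III, IV and V, and 7 of them passed the filter. None was called (0 higher, 0 lower), all 7 estimates were below 0, and their median was -0.26. The complex I gene mt-Nd1 had 929, 1332 and 1441 normalized counts in IgHMOG iGBGFP and 658, 1149 and 796 in WT iGB6, with overlap, a log2 fold change of -0.52 and a limma adjusted p of 0.114. The abundant mt-Co1 and mt-Cytb were nearly level between the groups, at -0.06 and -0.01. The other 6, mt-Nd3, mt-Nd4l, mt-Co2, mt-Co3, mt-Atp6 and mt-Atp8, had means of at most 2.14 normalized counts beside 3538 for mt-Co1, so their counts do not describe the mitochondrial RNA. Nuclear and mitochondrial subunits had medians of opposite sign with the size factors of the authors, but not with total count scaling, and the difference between them was not tested.

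Other mitochondrial genes were also without calls. In the citric acid cycle and pyruvate dehydrogenase list 0 of 16 genes passed the test, and 15 estimates lay above 0 with a median of 0.37, which was 0.16 with total count scaling and 0.28 to 0.37 with each library left out. An unadjusted p under 0.05 was reached by 6 of the 16, or 37.5%, against 24.5% of all genes. Pdha1, the catalytic subunit of pyruvate dehydrogenase, had 590, 454 and 594 normalized counts in IgHMOG iGBGFP and 734, 820 and 821 in WT iGB6. It had no overlap, a log2 fold change of 0.54 and a limma adjusted p of 0.0972. Mdh2, the mitochondrial malate dehydrogenase, had 3976, 3910 and 2868 against 5504, 4570 and 4789, also without overlap (limma adjusted p = 0.142). Among 17 tested genes of coenzyme Q synthesis and electron entry 0 passed, with a median of 0.23, which was 0.0435 without IgHMOG iGBGFP replicate 2 and 0.0214 with total count scaling. Gpd2, which passes electrons from glycerol 3-phosphate to coenzyme Q, had 961, 709 and 792 against 1180, 1014 and 1470 (limma adjusted p = 0.109).

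Of 34 tested assembly factors 0 passed, with a median of -0.06, and the estimate of Bcs1l, which inserts the Rieske protein into complex III, was 0.67 (limma adjusted p = 0.114). Mitochondrial protein import (21 tested, median 0.08) and the antioxidant, carrier and uncoupling genes (14 tested, median 0.03) had 0 calls. The 18 tested regulators of mitochondrial genes had 0 calls and a median of -0.01. Nrf1, whose letters occur in the windows of Uqcrc1, Sdha and Ndufs6, had 369, 340 and 417 normalized counts in IgHMOG iGBGFP and 461, 396 and 420 in WT iGB6, with overlap and a log2 fold change of 0.18. The coactivator Ppargc1a had a mean of 0.52 normalized counts and was not tested. The interaction of sex and group, which rests on 1 female per group, was called for 0 of the 9923 genes (limma), and 0 members had an unadjusted p under 0.05 for it. This count depended on the filter: without it 1230 of 22665 genes were called. Of the 84 members in that fit 0 were called, and 1 had an unadjusted p under 0.05.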

How the data were processed

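Bulk RNA-seq libraries of 6 mice, 3 per group, were grouped by the sample labels. Per the labels' protocols, cDNA was made from 8 to 16 ng of RNA with a low-input kit, with 17 and then 9 cycles of amplification. No molecular identifiers or strand are described, so copies count as reads. The submitters' processing notes name GRCm38/mm10, DESeq2 2.11.40.7, STAR 2.7.10b, featureCounts 2.0.3, cutadapt 4.4 and FastQC 0.74. Annotation, strand setting and multi-mapping treatment were not given in the sources used here. Normalized counts (unit: signal) were deposited by the authors and are whole reads divided by 1 factor per library: 100% of values came out whole, within 0.001, after division by the library's step. The authors' deposited DESeq2 table gives per gene a log2 fold change, its Wald score, and p-values before and after adjustment, without a header, and its column order was read from the values.

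Identifiers were matched to GENCODE M21 for 42548 of 43432 genes. Differences were tested with limma 3.58.1 (R 4.3.3, lmFit, eBayes with trend) on log2(normalized count + 1). The fit covered the 9923 genes whose mean was at least 10, with sex and group as terms, two-sided, Benjamini-Hochberg adjusted over all genes, threshold 0.05. The added count of 1 draws fold changes of low genes toward 0. The authors' deposited table nevertheless gave smaller log2 fold changes for Cox5a (0.77 against 1.04) and Cyc1 (0.84 against 0.95). Intervals are limma's 95% intervals. EdgeR 4.0.16 and DESeq2 1.42.0 were run on recovered reads. Shared words are 50-base words found in M21 transcripts of other genes. Other alternatives were pseudocounts of 0.5 and 5, filters, scalings, library weights, no sex term, a replicate block, males alone and each library left out. With sex as a term, leaving out replicate 1 of either group gives the same estimates as males alone, so these alternatives are not separate checks. The fit was also run on simulated counts with a fixed spread setting for all genes and no sex effect. Its outcome does not carry over to the spread of these libraries.

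The members and gene lists were chosen with earlier results of these data known. Within each complex the naming rule took the 3 smallest p and 2 highest means, all complex II genes, Cycs, Cyc1, Ndufa4 and isoform pairs. From the other lists it allowed the smallest p and highest means. Ndufs1, Ndufs6, Ndufa3, Ndufb4, Ndufab1, Ndufb2, Uqcrfs1, the small complex III subunits, Atp5c1, Atp5l, Cox7c, Atp5s, Cox7b2, Ppargc1a, Nrf1 and the genes listed for group separation were named after their values were seen, as was the split at 1000 bases. Each library is 1 mouse by its label. Some genes that entered the fits and counts are not reported here by name.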

Additional observations from a re-analysis of the deposited data

How the results depend on the processing

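With 3 mice per group and a median standard error near 0.19, small differences could not be resolved, and intervals cover no error of amplification or of shared reads. The count of members called higher was 0 in all fits except that without WT iGB6 replicate 2, so that leaving out 1 library at a time gave 0 to 2, and the count called lower was 0 throughout. With total count scaling the median log2 fold change was -0.053 over all members, and -0.040, -0.098, 0.0023, -0.13 and -0.071 for complexes I to V, while all other settings kept medians above 0. Leaving out each library gave 0.0105 to 0.289 for complex III, lowest without IgHMOG iGBGFP replicate 3, and 0.01 to 0.24 over all members. In the other pathway lists 3 genes were called higher and 1 lower with library weights, in a fit that called 14.5% of all genes. Leaving out each library gave 0 to 1 called higher, the 1 without WT iGB6 replicate 2, where 10.9% of all genes were called. The cause was not tested. The 47 members with few shared reads, a set chosen after seeing the data, had a median of 0.15.

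Replicate numbers were taken as numbers only. In deviations from the group means, same-numbered libraries of the 2 groups correlated at 0.48, 0.35 and 0.04, and differently numbered ones at -0.51 to 0.29. Replicate 1 was the only female of each group, so sex cannot be told apart from an effect of replicate 1. With a replicate block, 0 members were called, the median stayed at 0.15, the smallest adjusted p was 0.073 and 1001 of 9923 genes were called. Over all genes the main count of 607 became 10 with no sex term, 1443 with library weights, 1079 with no filter, 951 with DESeq2, 134 with males alone and 4 to 1083 with each library left out. Total count scaling changed the split from 273 higher and 334 lower to 82 and 352. No edgeR, DESeq2 or scaling alternative called a member.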
